A study of Mus musculus with 4 samples.

Results

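Metallothioneins are small cysteine-rich proteins that hold zinc, copper and other metals, and the genes described here are 3 of them (Mt1, Mt2 and Mt3), the zinc-sensing transcription factor gene Mtf1, and 5 zinc transporter genes (Slc30a1, Slc30a2, Slc39a14, Slc39a8 and Slc39a10). These 9 genes were chosen by measured values, the differences between doxycycline and PBS arrays over every probe, so those differences are given as a description with no test. All 9 were on the array, with 11 of the 27508 probes that carry a gene name, and 8 of the 9 passed the filter on dim probes, as did 12542 of the 20886 named genes. RNA came from adult heart muscle cells of 10-week-old male mice given doxycycline or PBS by intraperitoneal injection for 2 days, with 2 doxycycline arrays and 2 PBS arrays. Both groups carried the same alleles, from a cross of αMHC promoter-driven CRE mice with tetO-Yamanaka's OSKM factor mice. In that design doxycycline is meant to switch on Pou5f1, Sox2, Klf4 and Myc. The labels do not name the protein that lets doxycycline act on tetO, and the levels of the factors are not reported here. The αMHC promoter is active in heart muscle cells. None of the 4 arrays came from mice given doxycycline without the factors, so drug and factors cannot be told apart. The labels do not say that the arrays of a group came from separate animals, so the spread between them may be technical.

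The transcription factor MTF1 binds free zinc, moves to the nucleus and switches on metallothionein genes through short DNA motifs called metal response elements. The SLC30 (ZnT) proteins carry zinc out of the cytosol, into vesicles or out of the cell, and the SLC39 (ZIP) proteins carry it into the cytosol. Metallothionein genes are also known to respond to glucocorticoids, to interleukin 6 and to oxidative stress, and in mouse hearts metallothionein is known for limiting oxidative injury.

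Each level below is the log2 of a processed signal after division by that array's 75th percentile signal, and each difference is the doxycycline mean level minus the PBS mean level, so a difference of 1 means a signal 2 times as high. Those 75th percentile signals were 248 and 193 for doxycycline arrays 1 and 2 and 112 and 171 for PBS arrays 1 and 2. PBS array 1 stood apart. Its repeated spots varied by a median of 10.99%, a value outside the range the scanner software accepts, against 4.02% to 4.81% on the other 3 arrays. By the median of tested markers it was also 1.65 to 1.68 higher than PBS array 2 for fibroblasts, macrophages and endothelial cells. The same median of PBS array 1 minus PBS array 2 was 2.29 for red cells and 1.47 for smooth muscle and pericytes. It was 1.11 for neutrophils, 0.84 for adipocytes and -0.72 for heart muscle. The differences of the tested members and the medians of the gene lists are therefore also given without PBS array 1. Heart muscle markers were bright on every array, with a median level of 7.93 and 8.22 on the doxycycline arrays and 7.54 and 8.41 on the PBS arrays. The PBS arrays held the first positions on the slide and the doxycycline arrays the next, so position and treatment cannot be told apart. In bulk RNA, fewer cells of a type and less RNA per cell cannot be told apart.

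Mt1 and Mt2, the metallothioneins found in most mouse tissues, were far higher after doxycycline, and Mt3, the form best known from brain, was not. Mt2 had a processed signal of 133489 and 32030 on doxycycline arrays 1 and 2, against 723 and 1669 on PBS arrays 1 and 2. On the log2 scale these were levels of 9.07 and 7.38 after doxycycline and 2.69 and 3.29 after PBS. Both doxycycline arrays lay above both PBS arrays, and the lowest doxycycline array was 4.09 above the highest PBS array. The mean level of Mt2 was 8.22 ± 1.20 after doxycycline and 2.99 ± 0.43 after PBS (SD, n = 2 each), a difference of 5.24 ± 0.63 (SE), or 37.7-fold. Of the 12542 genes tested, 2 had a larger difference in that direction, so that Mt2 ranked 3 among them. Without PBS array 1 the Mt2 difference was 4.94, or 30.6-fold. The doxycycline arrays were further apart for Mt2, by 1.69, than for 90% of genes (0.98), and the difference was 4.39 without doxycycline array 1 and 6.08 without doxycycline array 2.

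Mt1 had a processed signal of 114589 and 96425 on doxycycline arrays 1 and 2, against 7740 and 23658 on PBS arrays 1 and 2. Its levels were 8.85 and 8.97 after doxycycline and 6.11 and 7.11 after PBS. The doxycycline arrays were nearly equal, the PBS arrays differed by 1.01, and the groups did not overlap. The difference was 2.30 ± 0.48 (SE), or 4.92-fold, and 1.80 (3.47-fold) without PBS array 1. No spot was saturated on any array. The Mt2 difference exceeded the Mt1 difference by 2.94, by 3.84 for doxycycline array 1 alone and by 2.03 for doxycycline array 2 alone. Mt1 and Mt2 encode similar proteins, and whether each probe detects its own transcript alone was not tested.

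Mt3 had levels of -1.51 and -1.34 on the doxycycline arrays and -0.64 and -1.10 on the PBS arrays. Both doxycycline arrays lay below both PBS arrays, by a gap of 0.24, and the difference was -0.56 ± 0.41 (SE), or -0.33 without PBS array 1. The processed signals of Mt3 were close on all 4 arrays, 87.0 and 76.3 after doxycycline and 72.1 and 79.9 after PBS, so the lower levels after doxycycline came with the higher 75th percentile of those arrays. Mt4, the metallothionein of squamous epithelium, is no member of the list. Its levels were -2.42 and -3.52 after doxycycline and -2.76 and -2.70 after PBS, and the groups overlapped (difference -0.24 ± 0.49 SE, limma adjusted p = 0.976 over all genes).

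**Figure D1:**
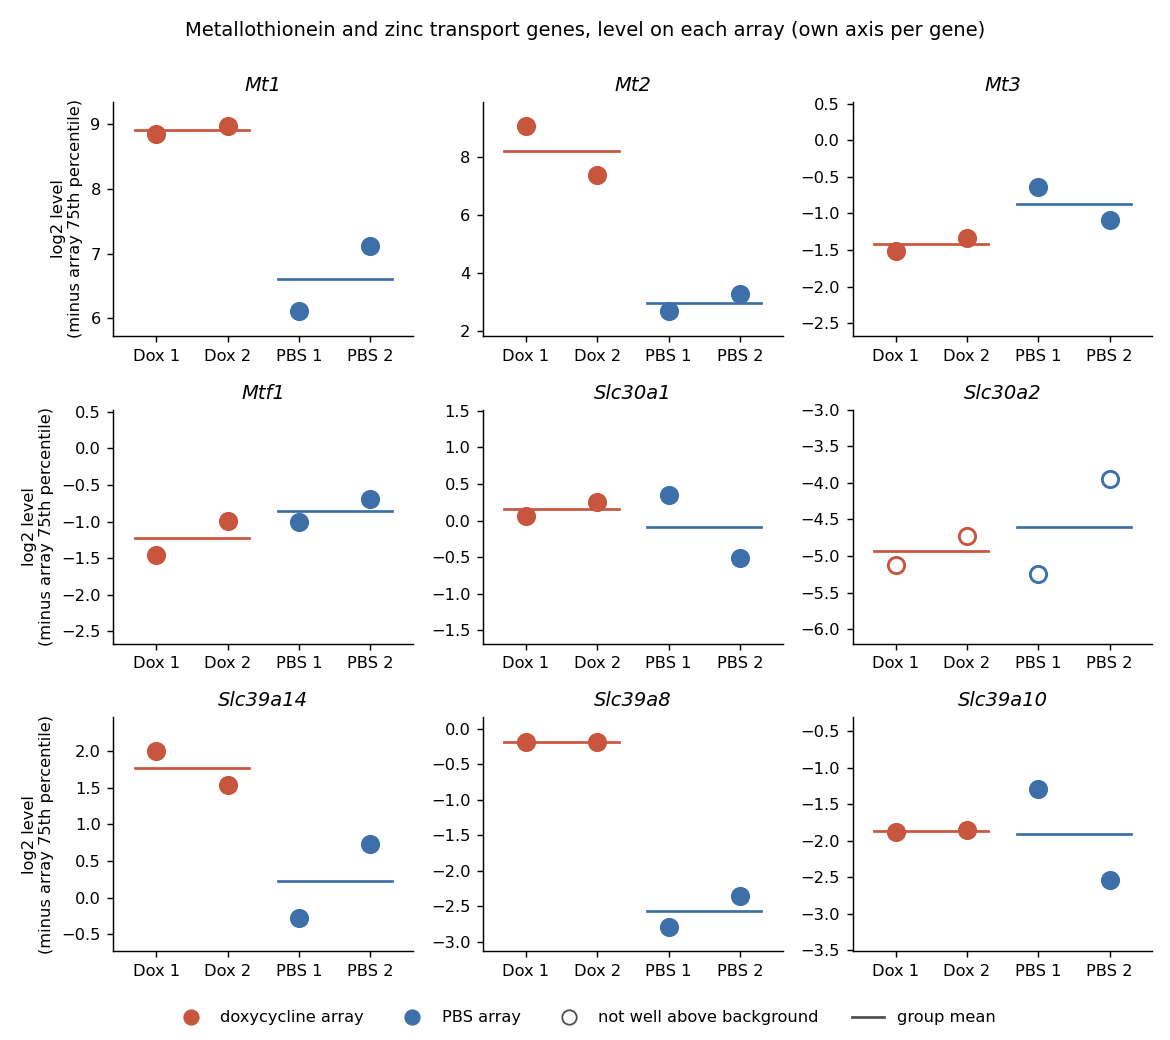
Log2 level of each of the 9 genes (y axis, minus the 75th percentile of the array, own axis per gene) on doxycycline arrays 1 and 2 and PBS arrays 1 and 2 (x axis). Points are arrays, lines are group means, and open points were not well above background; Mt1, Mt2, Slc39a14 and Slc39a8 have both doxycycline arrays above both PBS arrays.

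The promoters of Mt1, Mt2, Mt3 and of the exporter gene Slc30a1 are shown because they hold different numbers of matches to the metal response element core. MTF1 is known to act through such elements, and whether it binds these matches was not tested. Sequences are from RefSeq, build GRCm38.p6, 5′ to 3′ on the plus strand, from 250 bases before the annotated start to 30 bases after it. Capitals mark each match to the core of the element, searched as TGCACNC or TGCGCNC on both strands. The regions are chr8:94178839-94179118 (Mt1), chr8:94172368-94172647 (Mt2), chr8:94152357-94152636 (Mt3) and chr1:191906531-191906810 (Slc30a1). Mt2 and Mt1 are neighbours on chromosome 8, and Mt3 and Mt4 lie beside them in the RefSeq gene order, with 1 predicted lncRNA gene between Mt3 and Mt2.
Mt1: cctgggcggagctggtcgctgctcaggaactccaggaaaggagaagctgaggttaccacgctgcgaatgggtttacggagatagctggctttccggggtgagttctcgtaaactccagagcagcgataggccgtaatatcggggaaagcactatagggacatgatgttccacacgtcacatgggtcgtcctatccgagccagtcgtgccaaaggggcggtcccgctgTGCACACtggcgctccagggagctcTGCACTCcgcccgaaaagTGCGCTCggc
Mt2: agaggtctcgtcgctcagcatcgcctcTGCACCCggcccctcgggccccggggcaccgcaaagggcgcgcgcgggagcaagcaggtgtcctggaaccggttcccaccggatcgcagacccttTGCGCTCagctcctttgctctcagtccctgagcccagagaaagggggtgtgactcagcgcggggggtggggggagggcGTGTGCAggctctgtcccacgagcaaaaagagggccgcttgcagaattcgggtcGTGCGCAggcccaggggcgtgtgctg
Mt3: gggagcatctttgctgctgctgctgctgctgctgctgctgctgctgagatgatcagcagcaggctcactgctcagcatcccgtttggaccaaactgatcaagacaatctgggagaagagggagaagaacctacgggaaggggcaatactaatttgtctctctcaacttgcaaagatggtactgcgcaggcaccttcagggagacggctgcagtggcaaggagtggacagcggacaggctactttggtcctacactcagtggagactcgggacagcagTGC
Slc30a1: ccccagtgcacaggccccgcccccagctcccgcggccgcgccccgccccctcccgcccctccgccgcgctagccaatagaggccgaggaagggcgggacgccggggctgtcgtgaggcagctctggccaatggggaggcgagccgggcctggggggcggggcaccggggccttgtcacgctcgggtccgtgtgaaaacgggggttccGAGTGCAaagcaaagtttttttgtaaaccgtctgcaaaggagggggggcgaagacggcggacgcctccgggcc

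Matches were counted in the whole 300-base windows, from 250 bases before to 50 bases after the annotated start. Whether transcription begins at the annotated start was not tested, and matches outside the windows were not counted. The positions and numbers below hold for these windows alone. The Mt2 window held 4 matches to the metal response element core, at -223, -128, -50 and 5, and 0.517% of all 32851 promoter windows held at least 4. The Mt1 window held 3, at -23, 3 and 21, against 1.97% of windows with at least 3. Slc30a1 had 2, at -43 and 31, and Slc30a2 also had 2, at -214 and -200, where 7.11% of windows held at least 2. Mt3 had 1 at position 28, which runs past the bases printed above, and Mt4 had 1 at -91. The windows of Mtf1 and Slc39a10 held none, and of the 2 windows of Slc39a8 the second held 1, at -19. In all, 6 of the 8 members with a window had at least 1 match in any of their windows, which were 10 in number. The share over all windows, 25.7%, counts single windows and not genes. Slc39a14 had no window in the table.

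Other motifs were also searched in these windows. The core of the antioxidant element, searched as TGACNNNGC on both strands, was at -79 in Mt2, at -82 in Slc30a1 and at -35 in the first window of Slc39a8, and 12.4% of all windows held it. The STAT element, searched as TTCNNNGAA, was found in the first window of Slc39a10 alone (8.30% of windows), and the glucocorticoid receptor hexamer AGAACA in Mtf1 alone (19.0% of windows). No member window held the full glucocorticoid palindrome, as 0.00913% of windows did. These matches are descriptions of the letters in these windows.

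**Figure D2:**
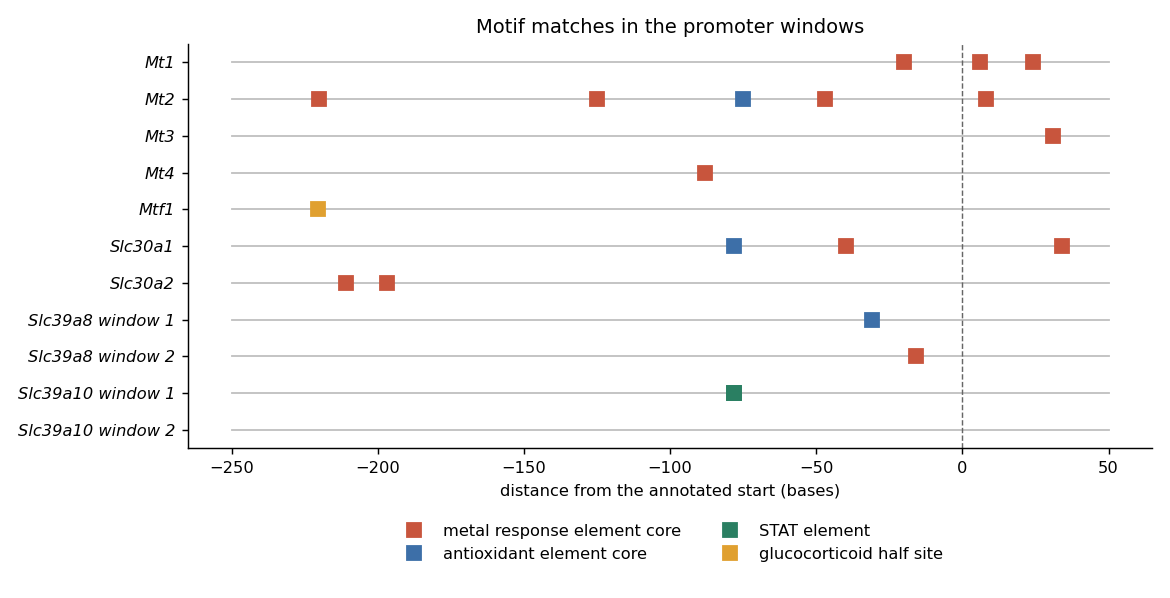
Positions of motif matches (squares, coloured by motif) in promoter windows of the genes (rows), by distance from the annotated start in bases (x axis). Mt2 has 4 and Mt1 has 3 matches to the metal response element core, Slc30a1 and Slc30a2 have 2 each, and the others have 1 or none.

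Mtf1, the regulator, had overlapping levels in the groups. Its levels were -1.45 and -0.99 on the doxycycline arrays and -1.01 and -0.69 on the PBS arrays, and the groups overlapped. The difference was -0.37 ± 0.42 (SE), and -0.54 without PBS array 1. It was -0.14 without doxycycline array 1, -0.60 without doxycycline array 2 and -0.21 without PBS array 2. Of the other 2 probes for Mtf1, one stayed below the background limit on all 4 arrays. The other was well above background on doxycycline array 1 and PBS array 1 but not on the remaining arrays, and it differed the opposite way, by 0.43, with overlapping groups.

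The exporter gene Slc30a1, a known target of MTF1, did not separate the groups. It read 0.06 and 0.26 on the doxycycline arrays and 0.34 and -0.51 on the PBS arrays. The doxycycline arrays fell between the PBS arrays, and the difference was 0.24 ± 0.46 (SE). It was 0.67 without PBS array 1 and -0.18 without PBS array 2, so its direction depends on the PBS array used. Slc30a2, which loads zinc into secretory vesicles, stayed below the background limit on all 4 arrays, with processed signals of 7.09 and 7.28 after doxycycline and 2.95 and 11.1 after PBS, so no fold is given for it.

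The importers Slc39a8 and Slc39a14 were both higher after doxycycline. Slc39a8 encodes ZIP8, which also carries manganese and cadmium. Its levels were -0.19 and -0.18 on the doxycycline arrays and -2.79 and -2.36 on the PBS arrays. The doxycycline arrays were almost equal and lay 2.17 above the highest PBS array. Mean levels were -0.19 ± 0.0049 and -2.57 ± 0.31 (SD, n = 2 each), and the difference was 2.39 ± 0.41 (SE), or 5.23-fold. It was 2.17 (4.50-fold) without PBS array 1. The probe was dim after PBS, with processed signals of 218 and 170 after doxycycline and 16.2 and 33.4 after PBS, and with normexp background correction, which adds an offset of 50, the difference was 0.89.

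Slc39a14 encodes ZIP14, which also carries iron and manganese and is induced by interleukin 6 in mouse liver. It read 2.01 and 1.53 on the doxycycline arrays and -0.28 and 0.73 on the PBS arrays. The lowest doxycycline array was 0.80 above the highest PBS array. The difference was 1.54 ± 0.49 (SE), or 2.92-fold, and 1.04 (2.06-fold) without PBS array 1. Slc39a10, reported in mouse to be held down by MTF1, read -1.88 and -1.86 after doxycycline and -1.29 and -2.54 after PBS. Both doxycycline arrays lay between the PBS arrays, and the difference was 0.04 ± 0.52 (SE), 0.66 without PBS array 1 and -0.58 without PBS array 2.

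Of the 8 members that passed the filter, 6 had a higher mean after doxycycline, against 45.2% of all genes tested. Both doxycycline arrays lay above both PBS arrays for 4 of them, against 14.5% of all genes, and below both for 1, against 20.8%. These counts come from the contrast on which the genes were chosen, so nothing is read from them. Of all 12542 genes, 0 passed the limma test at an adjusted p under 0.05 (0% in either direction), and 886 (7.06%) had an unadjusted p under 0.05. Median scaling of the arrays gave 95 genes higher and 33 lower. The smallest two-sided p that permuting 2 against 2 arrays allows is 0.333.

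**Figure D3:**
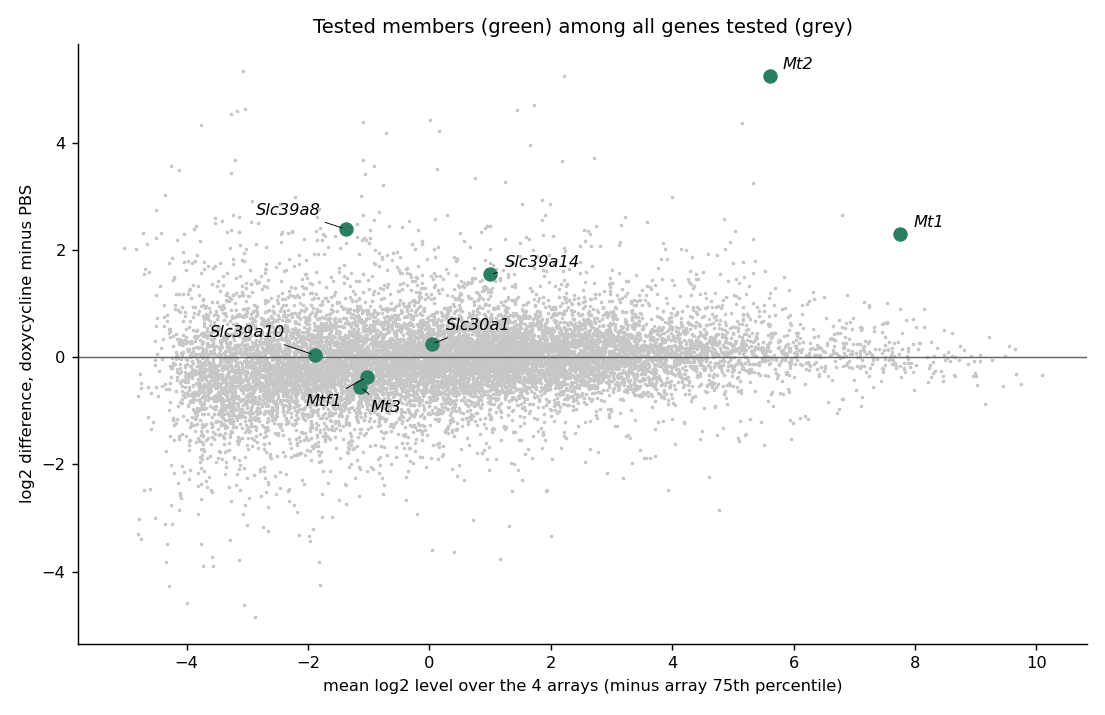
Log2 difference, doxycycline minus PBS (y axis), against the mean log2 level over the 4 arrays (x axis) for the 12542 genes tested (grey) and the 8 tested members (green). Mt2 at 5.24 has the third largest positive difference of all genes, while Mt3, Mtf1, Slc30a1 and Slc39a10 lie between -0.56 and 0.24.

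The other zinc transporter genes showed no common direction, and 0 passed the test. Of 19 further ZnT and ZIP genes on the array, 12 passed the filter, 4 with a higher and 8 with a lower mean after doxycycline, and 1 had an unadjusted p under 0.05. Both doxycycline arrays lay above both PBS arrays for 1 and below both for 3, against 14.5% and 20.8% of all genes tested. An unadjusted p under 0.05 in the limma fit was found for 7.06% of all genes tested. The median difference of these 12 was -0.11, against -0.06 over all genes tested, and it was -0.11 without PBS array 1 and -0.25 without PBS array 2. Slc39a6, a plasma membrane importer, was the 1 above. Its levels were -0.07 and -0.65 on the doxycycline arrays and -2.08 and -1.17 on the PBS arrays, and its difference was 1.27 ± 0.49 (SE, limma adjusted p = 0.661). Slc39a1, an importer of wide expression, differed by 0.53 ± 0.48 (adjusted p = 0.917). At the low end were Slc39a11 at -0.84 ± 0.40 (limma adjusted p = 0.786) and Slc39a13 at -0.38 ± 0.40 (adjusted p = 0.936), both with groups that did not overlap.

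Among the exporters, 5 of 8 further genes were tested, with a median difference of -0.10. That median had no stable sign: it was -0.23 without doxycycline array 1, 0.09 without doxycycline array 2, 0.03 without PBS array 1 and -0.34 without PBS array 2. The 7 other importers had a median of -0.12, which was 0.01 without doxycycline array 1, -0.46 without doxycycline array 2, -0.24 without PBS array 1 and -0.22 without PBS array 2. Slc30a6, which pairs with Slc30a5 to load zinc into the secretory pathway, differed by -0.66 ± 0.44 (SE, limma adjusted p = 0.882) with groups that did not overlap. Slc30a5 differed by -0.16 ± 0.40, the endosomal Slc30a4 by 0.12 ± 0.46 and the mitochondrial Slc30a9 by 0.10 ± 0.48, all with overlapping groups. Scaling to the array median moved the median of all genes to 0.29, with these exporters at 0.25 and these importers at 0.23, and quantile normalization turned the exporters' median to 0.06.

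**Figure D4:**
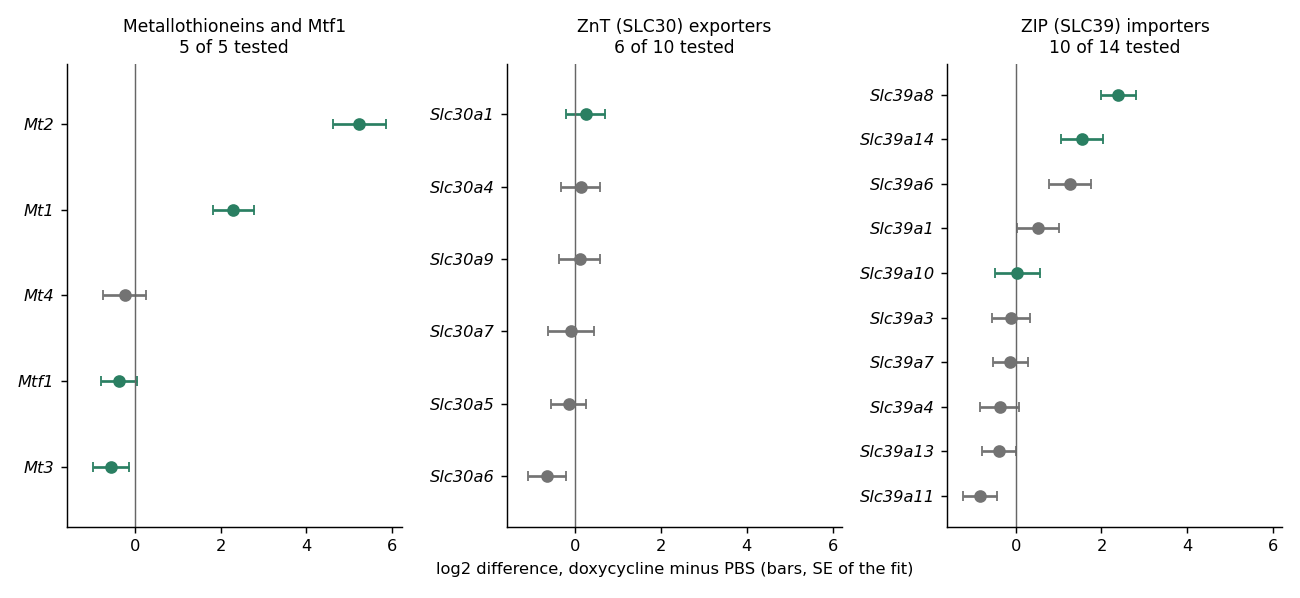
Log2 difference, doxycycline minus PBS (x axis, bars are the SE of the fit, n = 2 per group), for the tested metallothioneins with Mtf1, ZnT exporters and ZIP importers (rows). Members are green and other family genes grey; Mt2, Mt1, Slc39a8, Slc39a14 and Slc39a6 lie above 1 and the exporters lie between -0.66 and 0.24.

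Other genes reported in mouse to respond to MTF1 differed by -0.33 to 0.83. All 6 were tested, 4 had a higher mean after doxycycline, and 0 passed the test. An unadjusted p under 0.05 in the limma fit was found for 0 of them, against 7.06% of all genes tested. The median difference of the 6 was 0.22. The median was 0.09 without doxycycline array 1, 0.43 without PBS array 1 and -0.0066 without PBS array 2, so its direction depends on the arrays used. Pgf, a growth factor of the VEGF family, differed by 0.83 ± 0.58 (SE, limma adjusted p = 0.894) and the iron exporter gene Slc40a1 by 0.68 ± 0.51 (adjusted p = 0.896). The selenoprotein gene Selenoh, at -0.33 ± 0.41 (limma adjusted p = 0.955), had both doxycycline arrays below both PBS arrays. Csrp1, a LIM domain protein gene, differed by -0.18 ± 0.59.

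Genes of the other signals known to induce metallothioneins were described for comparison, from lists chosen with earlier results of these data known. Of all genes tested, 45.2% had a higher mean after doxycycline and 14.5% had both doxycycline arrays above both PBS arrays. An unadjusted limma p under 0.05 was found for 7.06%. Of 12 genes responsive to interleukin 6 and STAT3, all were tested and had a higher mean after doxycycline, the groups did not overlap for 11, and the median difference was 2.34. None passed the limma test over all genes (smallest adjusted p = 0.149), and 7 had an unadjusted p under 0.05. The median was 1.22 without doxycycline array 1, 3.39 without doxycycline array 2 and 2.73 without PBS array 1. Saa3, in this list, was well above background on 2 arrays alone. Its levels were 2.15 and -3.60 after doxycycline and -5.51 and -5.19 after PBS. Over the 11 genes well above background on all 4 arrays the median was 2.13. The secreted protease inhibitor gene Serpina3n (5.25 ± 0.66 SE) and the iron-siderophore binder gene Lcn2 (4.69 ± 0.84) were highest, and the receptor subunit gene Il6st (0.31 ± 0.39) and Stat3 (1.16 ± 0.47) lowest. Of 8 glucocorticoid-induced genes, both doxycycline arrays lay above both PBS arrays for 5, the median difference was 0.41, 0 passed and 3 had an unadjusted p under 0.05. That median was 0.70 without doxycycline array 1, 0.22 without doxycycline array 2 and 0.56 without PBS array 1. Fkbp5, a co-chaperone of the glucocorticoid receptor, was highest at 2.93 ± 0.41 (SE, limma adjusted p = 0.165) and Zbtb16 next at 2.35 ± 0.41, while Per1 and Dusp1 differed by 0.11 and -0.07. Of 7 tested NRF2-responsive genes, both doxycycline arrays lay above both PBS arrays for 3, the median difference was 0.54, 0 passed and 2 had an unadjusted p under 0.05. That median was 0.86 without doxycycline array 2, 0.29 without PBS array 1 and 0.83 without PBS array 2. Hmox1, which degrades haem, differed by 2.66 ± 0.51 (limma adjusted p = 0.284) and Gclm, a subunit of the enzyme that starts glutathione synthesis, by 1.57 ± 0.40, against 0.22 for Osgin1 and -0.02 for Gsr.

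Markers of other cell types differed between the arrays, and for several types the summed signal was highest on PBS array 1. The part of these markers in the differences above was not tested. Over all genes tested, 14.5% had both doxycycline arrays above both PBS arrays and 20.8% had both below. Of 9 neutrophil markers on the array 5 were tested. S100a8, S100a9 and Retnlg had both doxycycline arrays above both PBS arrays, and the groups overlapped for the other tested markers. Cxcr2 and Mmp9 were not well above background on any array. The summed signal of the tested neutrophil markers, in units of the array's 75th percentile, was 51.3 and 54.3 on the doxycycline arrays and 72.3 and 38.6 on the PBS arrays. Of 6 adipocyte markers 2 were tested and both were higher, with sums of 0.748 and 0.807 after doxycycline and 0.299 and 0.173 after PBS, while Adipoq, Plin1 and Lep were not above background on any array. Of 10 fibroblast markers, 6 had both doxycycline arrays below both PBS arrays, with sums of 80.6 and 86.4 after doxycycline and 221 and 68.8 after PBS. Of 8 tested macrophage markers 6 were lower in the same sense, with sums of 4.77 and 5.73 after doxycycline and 19.7 and 6.90 after PBS, and Cd163 was not above background on any array. All 5 red cell markers tested were lower, with sums of 46.0 and 54.9 after doxycycline and 328 and 67.9 after PBS. Endothelial sums were 79.5 and 114 after doxycycline and 277 and 84.5 after PBS, and 1 of 10 markers had groups that did not overlap. Of 7 smooth muscle and pericyte markers 3 were lower, with sums of 21.2 and 19.2 after doxycycline and 46.7 and 19.2 after PBS. Heart muscle sums were 3154 and 3958 after doxycycline and 4429 and 4960 after PBS. Of 10 heart muscle markers, 1 had both doxycycline arrays above both PBS arrays and 3 had both below.

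The genes whose profile over the 4 arrays was nearest to Mt2 included the acute phase genes Serpina3n and Lcn2. Nearness was the root mean square distance between levels centred on each gene's own mean. Serpina3n was nearest, at 0.25, with levels of 5.81 and 3.86 on the doxycycline arrays and -0.39 and -0.43 on the PBS arrays. Like Mt2 it was higher on doxycycline array 1 than on doxycycline array 2. Lcn2 followed at 0.64, then the keratin-associated protein gene Krtap11-1 at 0.66, the kinase gene Map3k6 at 0.81 and the dynein light chain gene Dynlrb2 at 0.90. Dynlrb2 was well above background on 2 arrays alone. By correlation, a different measure that ignores the size of a difference, likeness over 4 arrays is common. A correlation over 0.95 with Mt2 was found for 291 genes.

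Mt1 was nearest to other genes than Mt2 was. The distance depends on the size of the difference, which was 2.30 for Mt1 and 5.24 for Mt2. Shared regulation was not tested. The mitochondrial carrier genes Ucp3 and Ucp2 lay at distances of 0.07 and 0.13, with Man1a at 0.10, the thyroid hormone carrier gene Ttr at 0.11 and the clock gene Arntl at 0.13 in the same list of 5. Ucp3 read 3.82 and 3.75 on the doxycycline arrays and 0.94 and 2.04 on the PBS arrays. Man1a and Ttr were well above background on 2 arrays each, and Arntl on 3. Mt1 and Mt2 themselves were 1.61 apart on this measure, with a correlation of 0.94 over the 4 arrays, and 385 genes had a correlation over 0.95 with Mt1.

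**Figure D5:**
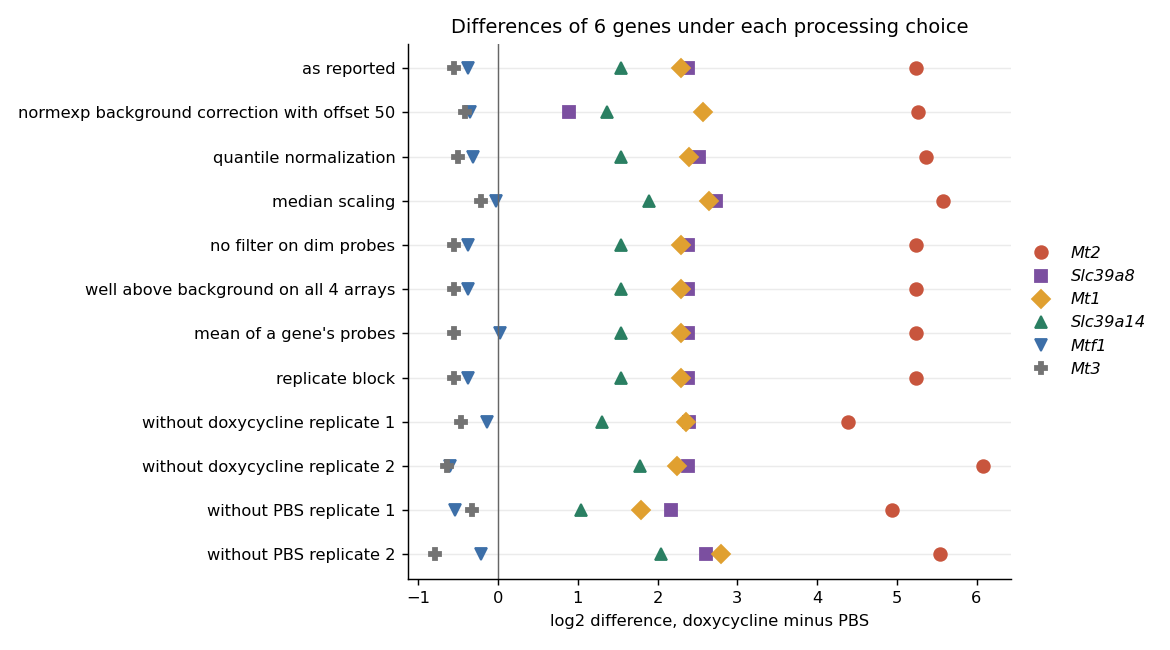
Log2 difference, doxycycline minus PBS (x axis), of 6 genes (symbols) under each processing choice (rows). Mt2, Mt1, Slc39a8 and Slc39a14 stay above 0 in every row, from 0.89 for Slc39a8 under normexp to 6.08 for Mt2 without doxycycline replicate 2, and Mtf1 crosses 0 with the mean of its probes.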

How the data were processed

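Per the file headers, the authors scanned 1-colour Cy3 arrays (design build mm9) and read spot intensity in Agilent Feature Extraction 10.7.1.1. That deposited intensity is linear, has background and spatial trend removed, and carries no scaling between arrays. The deposited flags, coded as other values per the file headers, mark spots well above background, saturated or outlying. All 4 arrays lay on 1 slide. Probe accessions were named through RefSeq (GRCm38.p6), for names only.

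Signals were log2-transformed, the array's 75th percentile subtracted, outlying spots dropped and repeated spots averaged. Probes flagged above background on fewer than 2 of the 4 arrays were dropped, and the brightest probe stood for a gene. Differences were fitted with limma 3.58.1 in R 4.3.3, two-sided, adjusted by Benjamini-Hochberg across 12542 genes at 0.05, and the steps were tested on simulated data. The number of arrays and signal over background limit precision.

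The members and lists were chosen with earlier results of these data known. The text names every member, the 2 highest and 2 lowest genes of each other list, and the 5 genes nearest to Mt1 and to Mt2, predicted and clone names passed over. Saa3 is also named, for its background flags. Protein sequences were not used here. Alternatives were background correction (normexp on median spot signals), scaling, dim-probe filter, probe choice, variance model, replicate block, call rule and leaving out each array.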

Additional observations from a re-analysis of the deposited data

How the results depend on the processing

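Over the alternatives run, Mt1, Mt2 and Slc39a14 ranged from 1.80 to 2.80, 4.39 to 6.08 and 1.04 to 2.05. The ends of these ranges came from fits that leave out an array. Both doxycycline arrays lay above both PBS arrays for each of these genes, so leaving out an array could not turn their direction. Slc39a8 ranged from 2.17 to 2.60 over the fits that leave out an array, was 0.89 with normexp background correction and 2.73 with median scaling, where the median of all genes was 0.29. Mtf1 was 0.029 with the mean of its probes and 0.43 for its second probe. The count of 0 genes higher and 0 lower became 95 and 33 with median scaling, and 394 and 479 when genes were called by unadjusted p under 0.05 and by a size of 1 or more. It ranged from 0 to 87 higher and from 0 to 84 lower when 1 array was left out: leaving out doxycycline array 1 gave 17 and 15, doxycycline array 2 gave 87 and 84, and the count was 0 without either PBS array. With the replicate number as a block it was 152 and 143. That fit left 1 residual degree of freedom and 1 common spread for all genes, the labels do not say that the numbers pair samples, and same-numbered arrays did not deviate together (r = -0.085 across genes). For the lists of known inducers the alternatives were chosen after seeing the data. Of the 12 interleukin 6 and STAT3 genes 5 passed with median scaling and 7 with the block. Of the 8 glucocorticoid-induced genes 2 passed with median scaling and 3 with the block. Of the NRF2 genes 1 passed with median scaling and 1 with the block. The cause of these changes was not tested.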

Other observations

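Metallothioneins also bind copper, and the genes of copper handling differed by -0.55 to 0.53 between the groups. Of 12 copper handling genes on the array 10 were tested, 3 with a higher and 7 with a lower mean after doxycycline, and 0 passed the limma test over all genes, nor had any an unadjusted p under 0.05. Over all genes tested, 7.06% had an unadjusted limma p under 0.05 and 45.2% had a higher mean after doxycycline. Both doxycycline arrays lay above both PBS arrays for 2 copper handling genes, Ccs among them, and below both for 2. The shares over all genes tested were 14.5% and 20.8%. The median difference of the copper handling genes was -0.13. The copper chaperone gene for superoxide dismutase, Ccs, differed by 0.53 ± 0.47 (SE), with levels of 2.49 and 2.49 on the doxycycline arrays and 1.48 and 2.45 on the PBS arrays. The copper exporter gene Atp7a differed by 0.49 ± 0.53, with groups that overlapped. The cytochrome c oxidase assembly gene Sco1 (-0.55 ± 0.43) and the copper chaperone gene Atox1 (-0.37 ± 0.41) had both doxycycline arrays below both PBS arrays. Without PBS array 1 the median of the list was -0.39, and without PBS array 2 it was 0.17.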
